A study of Mus musculus with 6 samples.

Results

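The genes described here are 10 genes of the contractile apparatus that myoepithelial cells of the mammary gland share with smooth muscle: Acta2, Actg2, Myh11, Myl9, Mylk, Cnn1, Tagln, Tpm1, Tpm2 and Oxtr. They were taken by name, as the non-control probes of the array that carry 1 of these gene names, which gave 21 of 41174 probes and 10 of 27670 genes. All 10 passed the filter on dim probes, which kept 24829 genes. For 9 of them the sample channel of the probe used was well above background on all 6 arrays, and the Oxtr probe was so in P4 and MEC but not in P5.

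The samples came from virgin C57/B6 mice, either wild type (WT) or heterozygous for a knockout of ΔNp63 (het), the short-form class of the basal epithelial transcription factor p63. Each genotype gave a sorted CD24+CD29hi population named P4 and labelled as enriched for mammary stem cells, a sorted CD24+CD29lo population named P5 and labelled as enriched for luminal progenitors, and mammary epithelial cells without enrichment (MEC). Each of the 6 groups was 1 array, and the labels give neither the age of the mice nor how many contributed to an array. Every sample was read against the same Universal Mouse Reference RNA, pooled from 11 cell lines of mouse, and values are log2 of sample over reference unless stated. A value of 0 is the level of the reference, so values of different genes do not rank their RNA levels.

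Myoepithelial cells form the basal layer of the mammary epithelium and squeeze milk out of the alveoli. Oxytocin binds its receptor Oxtr, calcium and calmodulin then switch on the myosin light chain kinase Mylk, and Mylk phosphorylates the regulatory light chain Myl9 so that the heavy chain Myh11 pulls on filaments of the actins Acta2 and Actg2. Calponin (Cnn1), transgelin (Tagln) and the tropomyosins Tpm1 and Tpm2 bind along those filaments. Many genes of this apparatus are known targets of serum response factor, which binds a short sequence named the CArG box.

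The arrays held 45018 spots each, and the sample channel was well above background in 74.3% to 89.8% of the non-control spots. The 4 sorted samples shared slide 1 and both MEC samples lay on slide 2, so slide and the MEC population cannot be told apart. Every het array lay at a later slide position than the WT array of its population, and position and genotype cannot be told apart either. A few spots had very high local backgrounds in Cy3, with a maximum of 5972 to 30168 on the 3 WT arrays and 51 to 1125 on the het arrays, and their handling in background correction changes dim values. Where it moves a result, the value with such backgrounds replaced by the array median is given beside it. Probes printed 10 times put the technical error of a log2 difference between 2 arrays at 0.142, which covers spots of an array and not mice or sorts. The targeted gene, Trp63, stood at 4.41 in WT P4 and 5.29 in het P4, 0.46 and 0.89 in P5, and 2.78 and 2.65 in MEC. With backgrounds replaced these became 5.99 and 5.49, 0.54 and 0.89, and 3.71 and 2.67. Trp63 does not settle the genotype labels, because the direction in P4 depends on the background correction and whether its probe lies in the deleted part is not given in the sources used here. WT and het therefore stand for the libraries so labelled.

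Several of these genes had more than 1 probe, and sequences of tropomyosin probes are printed below. The values given for Tpm1 as a gene come from another probe (chr9:67054531-67054590, minus strand), which is not printed. Those given for Tpm2 come from the Tpm2 probe printed here. The first pair of sequences below comes from matching stretches of Tpm1 (mm7, chr9:67064287-67065357, minus strand) and Tpm2 (chr4:43533092-43533242, minus strand). They share 33 aligned bases, of which 27 are identical (81.8%) and 6 differ, shown in capitals. The last sequence is a Tpm1 probe (chr9:67059621-67061176, minus strand). The frame that begins with its opening base meets a stop triplet, shown in capitals, that ends at base 48. Another frame of the probe holds no stop triplet, and which frame is translated was not looked up. Tpm1 is known to be spliced into forms with different last exons, and which form this probe reads was not looked up. The words coding and alternative end in the labels below are therefore names only.
Tpm1 coding probe: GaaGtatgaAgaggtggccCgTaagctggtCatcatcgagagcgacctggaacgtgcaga
Tpm2 coding probe: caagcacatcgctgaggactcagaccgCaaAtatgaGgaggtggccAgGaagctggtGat
Tpm1 alternative end probe: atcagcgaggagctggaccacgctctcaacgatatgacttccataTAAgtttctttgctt

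P4 against P5 asks how the CD29hi and CD29lo populations differ. All 10 genes were higher in P4, by a median of 5.56 on the log2 scale against 0.04 over all genes. All 10 were called (limma, adjusted p 0.00611 to 0.0465), where 5.04% of the 24829 genes were called higher in P4. The highest of these p-values was that of Oxtr, whose probe passed the filter on dim probes through P4 and MEC and not P5. Its call was also lost in other settings, given with that gene below. With each array centred on its median instead of loess 8 of 10 were called, without Tpm1 and Oxtr. Cnn1, Myl9, Tpm2 and Tagln held ranks 1 to 4 of all genes when genes are ordered from the highest excess in P4 downwards, Acta2, Mylk and Myh11 ranks 8, 9 and 16, and Actg2, Tpm1 and Oxtr ranks 82, 448 and 1148. In bulk samples like these, fewer cells of a type and less RNA per cell cannot be told apart. The calls need all 4 sorted arrays: without any 1 of them 0 of the 10 genes were called, with lowest adjusted p-values (limma) of 0.0979 without WT P4, 0.0944 without WT P5, 0.123 without het P4 and 0.0607 without het P5. The 10 genes were still higher in P4 in each of those fits and had unadjusted p-values under 0.05, as did 3776 to 5870 genes in all.

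**Figure D1:**
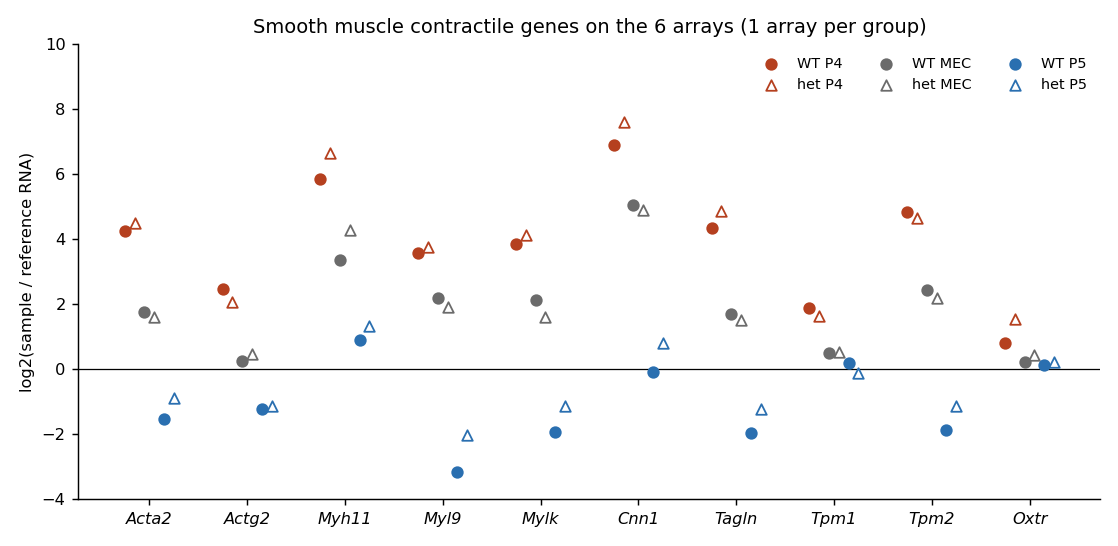
Log2 of sample over reference for each of the 10 genes on each of the 6 arrays, 1 point per array, with no error bars because each group is a single array. For every gene other than Oxtr both P4 arrays lie above both MEC arrays, which lie above both P5 arrays. The share of all genes with that spacing was not counted. Oxtr, not well above background in P5, has P4 above the rest, with WT MEC and het P5 equal to 2 decimals (0.22 in each).

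Of the actins, Acta2, the smooth muscle alpha actin, stood at 4.25 in WT P4 and 4.50 in het P4, at 1.77 in WT MEC and 1.59 in het MEC, and at -1.54 in WT P5 and -0.91 in het P5. In linear terms that is 19.1 and 22.6 times the reference in P4 and 0.344 and 0.533 times in P5, and the populations did not overlap. For Acta2 and the genes below, the share of all genes without overlap was not counted. The probe is printed 10 times per array, and its spots had SDs of 0.0210 to 0.0986. P4 exceeded P5 by 5.60 (SE 0.22, limma adjusted p = 0.00611), a ratio of 48.5. Actg2, the gamma actin of visceral smooth muscle, stood at 2.45 and 2.07 in WT and het P4, 0.23 and 0.47 in MEC, and -1.22 and -1.15 in P5. Its populations did not overlap, and P4 exceeded P5 by 3.44 (SE 0.18, limma adjusted p = 0.00678).

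In the myosin motor, Myh11, the smooth muscle heavy chain, stood at 5.85 in WT P4 and 6.66 in het P4, 3.36 and 4.29 in MEC, and 0.89 and 1.32 in P5. It was above the reference on all 6 arrays, and P4 exceeded P5 by 5.15 (SE 0.16, limma adjusted p = 0.00611). Myl9, the regulatory light chain, stood at 3.56 and 3.76 in WT and het P4, 2.18 and 1.91 in MEC, and -3.18 and -2.04 in P5. Its P5 values were the lowest of the 10 genes on this scale, and P4 exceeded P5 by 6.28 (SE 0.35, limma adjusted p = 0.00692). Mylk, the kinase that acts on Myl9, stood at 3.83 and 4.12 in WT and het P4, 2.13 and 1.61 in MEC, and -1.95 and -1.14 in P5. The difference between P4 and P5 was 5.52 (SE 0.33, limma adjusted p = 0.00725), with no overlap of the populations for any of these genes.

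Among the proteins that bind actin filaments, Cnn1 had the highest excess in P4 over P5 of the 24829 genes. It stood at 6.90 in WT P4 and 7.61 in het P4, or 119 and 196 times the reference, at 5.04 and 4.89 in MEC, and at -0.10 and 0.81 in P5. P4 exceeded P5 by 6.90 (SE 0.29, limma adjusted p = 0.00611). Tagln stood at 4.35 and 4.85 in WT and het P4, 1.70 and 1.51 in MEC, and -1.98 and -1.24 in P5, and its difference was 6.21 (SE 0.25, limma adjusted p = 0.00611). Both genes kept the populations apart without overlap.

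The tropomyosins differed from each other. Tpm2 stood at 4.83 in WT P4 and 4.65 in het P4, 2.44 and 2.17 in MEC, and -1.89 and -1.15 in P5, a difference of 6.26 between P4 and P5 (SE 0.28, limma adjusted p = 0.00622). Tpm1 stood at 1.87 and 1.63 in WT and het P4, 0.48 and 0.54 in MEC, and 0.20 and -0.11 in P5, a difference of 1.70 (SE 0.14, limma adjusted p = 0.0109). Neither gene had overlapping populations, and whether their differences are unequal was not tested.

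Oxtr, the oxytocin receptor, stood at 0.81 in WT P4 and 1.54 in het P4, 0.22 and 0.43 in MEC, and 0.13 and 0.22 in P5. P4 was above the rest, while WT MEC and het P5 were equal to 2 decimals. P4 exceeded P5 by 1.01 (SE 0.19, limma adjusted p = 0.0465), and by 2.01 (adjusted p = 0.00646) with backgrounds replaced. Over the other ways of processing it ranged from 0.09 to 2.99, and it was not called under median centring, without a filter on dim probes, with the filter set at all 6 arrays (which takes the other Oxtr probe) or as the mean over both probes. Since the probe was not well above background in either P5 array, the sample channel alone does not fix the P5 level. Measured as normalised Cy5 levels against the lowest signal that counts as detected, or the probe's own where that was higher, P4 was 2.62-fold higher than P5 and MEC 1.37-fold higher. The probe's own P5 level was the higher there, so these are the measured Cy5 folds and not lower limits. The ratio to the reference gave smaller folds, 2.01 for P4 over P5 and 1.11 for MEC over P5.

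Genes with several probes gave more than 1 reading of the same difference. Of the 21 probes 20 could be fitted, 19 were higher in P4 and 17 were called (limma, adjusted over all probes). The probe left out (A_52_P644232, Acta2, chr19:33954688-33954747) was not above background on any array. The other Acta2 probes gave 6.76 (A_52_P210078, SE 0.37), 2.72 (A_52_P239556, SE 0.28) and 2.66 (A_51_P450957, SE 0.23), so the sign was shared and the size was not. Both Tagln probes (6.21 and 5.56) and both Tpm2 probes (6.26 and 6.13) were called.

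Mylk and Tpm1 each had a probe that did not follow the rest. Mylk probes at chr16:34671521-34671580 and chr16:34669844-34669903 gave 5.52 and 5.64, while the probe at chr16:34628800-34628859, upstream on the plus strand, gave 0.12 (limma adjusted p = 0.710). As background, the 3′ part of Mylk also encodes telokin, a small separate protein. The Tpm1 alternative end probe printed above stood at -1.32 and -1.48 in WT and het P4, -1.57 and -1.68 in MEC, and -0.99 and -1.18 in P5, a difference of -0.32 (limma adjusted p = 0.151). The Tpm1 coding probe stood at 1.69 and 1.27, -0.14 and 0.18, and -0.06 and -0.17 in the same order, and P4 exceeded P5 by 1.59 (limma adjusted p = 0.0212). The second Oxtr probe, at chr6:112649929-112649988, was above background on all 6 arrays and gave 0.09 (limma adjusted p = 0.697). Exon and UTR annotation of mm7 was not used here.

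**Figure D2:**
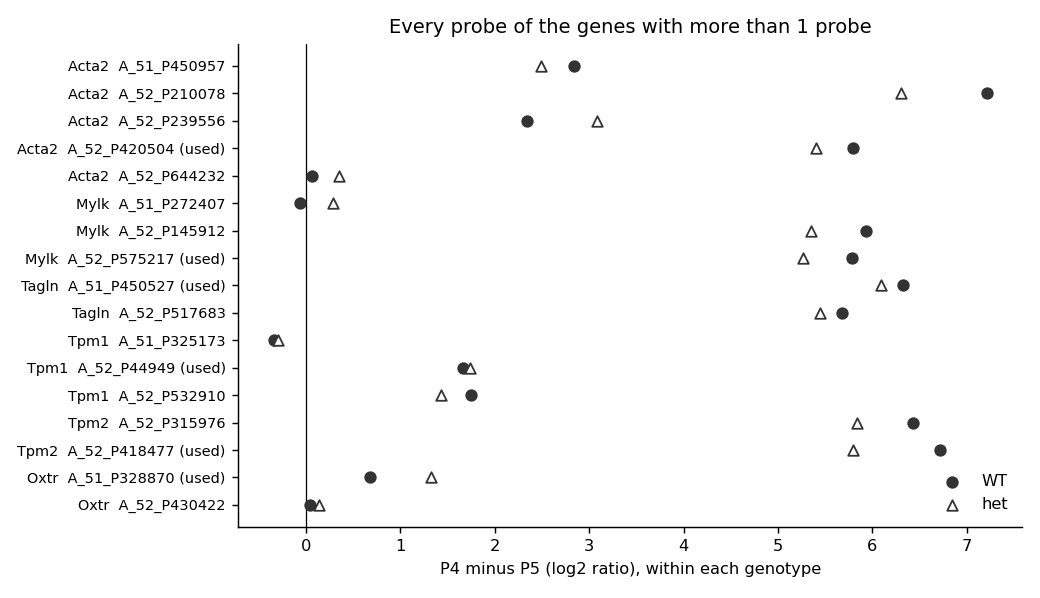
Difference P4 minus P5 (log2) within WT (circles) and within het (triangles) for every probe of the 6 genes with more than 1 probe, each point 1 array less another, with no error bars. The probe used for a gene is marked, and probes near 0 in both genotypes belong to Mylk, Tpm1, Oxtr and Acta2 (the undetected A_52_P644232, which was not fitted).

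MEC, the unenriched epithelium, lay between P4 and P5. The order P4 above MEC above P5 held in both genotypes for 10 of 10 genes, an order found for 7.31% of 24808 genes. For Oxtr the step from MEC to P5 turned under median centring (P5 minus MEC 0.25), with the other Oxtr probe (0.06) and without het P5 (0.04). As a share of the P4 ratio on the linear scale, MEC stood at 15.9% to 66.3% in WT (median 24.6%) and 9.91% to 46.9% in het (median 18.7%). P5 stood at 0.783% to 62.1% of P4 in WT and 0.897% to 39.9% in het. Oxtr set both upper ends in WT, and with backgrounds replaced its MEC share there was 26.4% and its WT difference between P4 and P5 2.36 in place of 0.69.

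P4 exceeded MEC by a median of 2.20 against 0.04 over all genes, and 8 of 10 were called higher and 0 lower (limma), where 2.75% and 4.1% of genes were. The differences ran from 1.24 for Tpm1 (SE 0.14, limma adjusted p = 0.0286) to 2.99 for Tagln (SE 0.25, adjusted p = 0.0225) among those called. Myl9 (1.62, adjusted p = 0.0737) and Oxtr (0.85, adjusted p = 0.0784) missed the threshold, and passed it with backgrounds replaced (1.65, adjusted p = 0.0408, and 1.68, adjusted p = 0.0115). P5 fell below MEC by a median of 3.06, with 8 of 10 called lower where 3.01% of genes were. Myl9 (-4.66, limma adjusted p = 0.0171) and Cnn1 (-4.61, adjusted p = 0.0154) had the widest gaps. Tpm1 (-0.46, adjusted p = 0.157) and Oxtr (-0.15, adjusted p = 0.702) were not called. Both comparisons with MEC are also comparisons of slides, and without any 1 of the 4 sorted arrays 0 genes of the set were called in either. With each array centred on its median, 4 of 10 were called higher in P4 than in MEC and Tpm1 was at -0.13. That setting called 7023 of 24829 genes for P4 against MEC, in either direction.

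**Figure D3:**
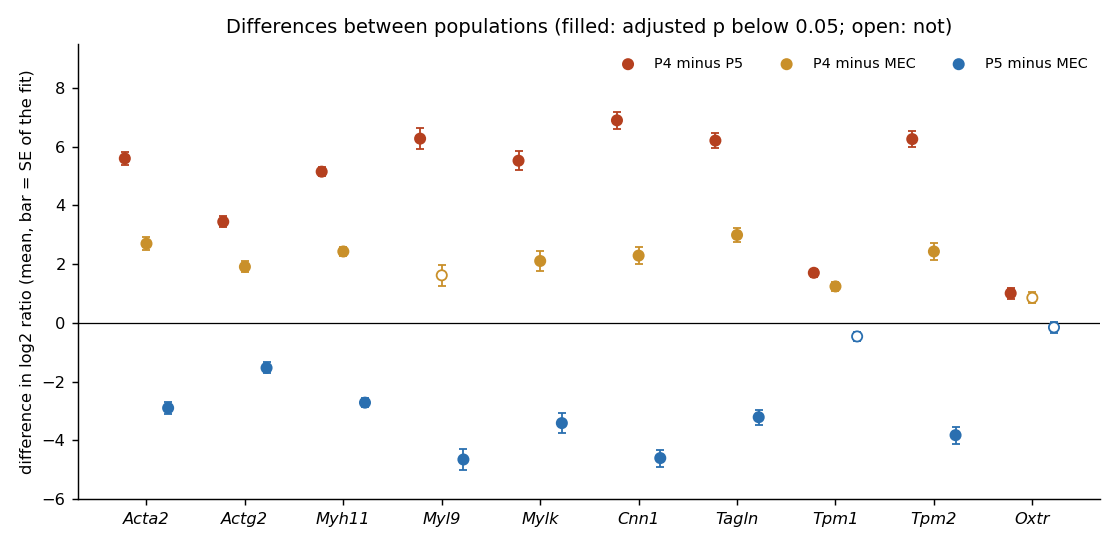
Differences between populations (log2) with standard errors for the 10 genes, from the additive limma fit over 6 arrays, with filled points for an adjusted p below 0.05. P4 minus P5 runs from 1.01 (Oxtr) to 6.90 (Cnn1), and P5 minus MEC is nearest 0 for Oxtr (-0.15) and Tpm1 (-0.46).

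Relatives of these genes, among them genes of striated muscle, nonmuscle family members and the vasopressin receptors, were read the same way. Of 22 measured paralogs 6 were called higher in P4 than P5 and 1 lower (limma), with a median of 0.12. The striated actins Actc1 (5.63, adjusted p = 0.00622) and Acta1 (5.08, adjusted p = 0.00611) were higher. Their coding sequences closely resemble those of Acta2, and cross-reading by their probes was not tested. Also higher were Cnn2 (2.01), the nonmuscle heavy chain Myh10 (1.43), the light chain Myl6 (1.35) and Tpm4 (1.30), and Myh14, another nonmuscle heavy chain, was lower (-2.25, adjusted p = 0.0192). Actb (0.39), Myh9 (0.61), Myl12a (0.34), Myl12b (-0.26), Cnn3 (-0.14), Tagln2 (-0.25) and Tpm3 (-0.11) did not pass the test.

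**Figure D4:**
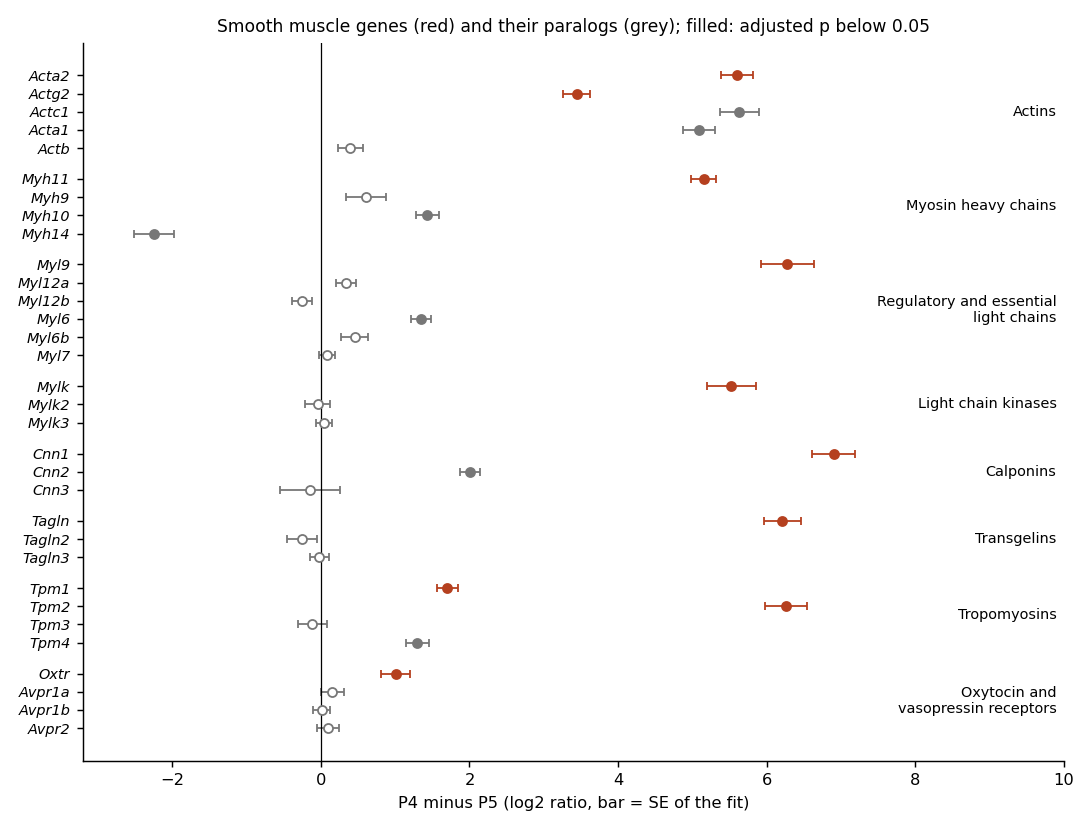
Difference P4 minus P5 (log2) for the 10 genes (red) beside their paralogs (grey) by protein family, with the standard error of the limma fit as bars and filled points for an adjusted p below 0.05. Acta2 (5.60) lies beside Actc1 (5.63) and Acta1 (5.08), while Actb (0.39) and Myh9 (0.61) lie near 0.

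Of 25 other smooth muscle structural genes 20 were called higher in P4 than in P5 and 0 lower (limma), with a median of 1.91. Lmod1, which nucleates actin filaments, gave 4.72, and the lowest values were Dmd (-0.12, adjusted p = 0.618) and Svil (-1.25, adjusted p = 0.389). Of 37 genes of contraction signalling 5 were called higher and 1 lower, with a median of 0.21. The myosin phosphatase subunit Ppp1r12b gave 1.94 (adjusted p = 0.00982) and Rgs2, which restrains receptor signalling, 1.80 (adjusted p = 0.124). The calcium release channels Itpr2 (-1.12, adjusted p = 0.0142) and Itpr3 (-0.98, adjusted p = 0.0639) were at the low end. With backgrounds replaced 10 of these signalling genes were called higher and 3 lower.

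Regulators around serum response factor gave 10 called higher and 0 lower of 25 (limma), with a median of 0.37. The cofactor Fhl2 (2.30) and the DNA-binding factor Tead1 (2.05) were highest, and Tead4 (-0.58, adjusted p = 0.162) and Smad3 (-0.75, adjusted p = 0.150) lowest. Srf, Mrtfa and Myocd were chosen after their values were seen. Srf itself gave 1.10 (adjusted p = 0.0370), its cofactor Mrtfa 1.15 (adjusted p = 0.0259), and Myocd, the myocardin of smooth and cardiac muscle, -0.04 (adjusted p = 0.910).

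Since several of these genes move together, the promoters of those in the RefSeq promoter table (GRCm38.p6, 7 of 10) were searched on both strands for the CArG box, and for the same box with 1 G or C inside. In the 250 bases before the start, 1.47% of 32851 promoters held a CArG box and 7.24% the variant. Myl9 held both, Acta2 the variant only, and the other 5 neither. TATAAA was in 0 of the 7 (12.4% of all promoters) and CATTCC in Acta2, Mylk and Tpm1 (12.6%). A match is a description of letters and not a binding site. The 250 bases before the start of Acta2 (chr19:34255374-34255623, minus strand) and Myl9 (chr2:156775214-156775463, plus strand) follow, with the matches in capitals.
Acta2 promoter: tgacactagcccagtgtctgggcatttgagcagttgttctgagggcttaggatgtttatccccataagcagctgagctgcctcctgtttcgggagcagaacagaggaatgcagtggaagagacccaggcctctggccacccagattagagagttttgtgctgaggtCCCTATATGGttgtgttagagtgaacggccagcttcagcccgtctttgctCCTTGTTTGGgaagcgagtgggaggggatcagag
Myl9 promoter: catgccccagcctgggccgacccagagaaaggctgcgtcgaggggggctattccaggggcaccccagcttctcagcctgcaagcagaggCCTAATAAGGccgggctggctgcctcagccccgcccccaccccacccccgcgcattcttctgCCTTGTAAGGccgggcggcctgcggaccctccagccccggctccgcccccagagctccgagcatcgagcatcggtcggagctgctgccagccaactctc

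Markers of cell types were set beside the set to check the labels. Of 13 basal epithelial markers 11 were called higher in P4 than in P5 and 0 lower (limma, median 2.90), led by Col17a1 (5.09) and Sparc (4.35), with Itga6 (0.95) and Itgb4 (0.39, adjusted p = 0.461) lowest. Of 17 luminal markers 15 were called lower and 0 higher (median -3.48), where 5.53% of all genes were called lower, from Epcam (-1.85) and Gata3 (-1.03, adjusted p = 0.104) to Areg (-4.78) and Aldh1a3 (-5.57). Vessels also hold contractile cells, and of 14 measured pericyte and vascular smooth muscle markers 4 were called higher (Lmod1, 4.72, Rasl12, 4.69, Mcam, 3.11, and Pdgfrb, 1.97) and 1 lower (Notch3, -2.07), with Heyl at -0.07. With backgrounds replaced 6 were called higher, now also Rgs5 (1.54, limma adjusted p = 0.0395) and Itga8 (1.48, adjusted p = 0.0167), and 1 lower. The median of these 14 markers moved from 0.41 to 0.97. The mean log2 ratio of that list was 1.05 and 1.62 in WT and het P4, 1.45 and 1.71 in MEC, and -0.03 and 0.53 in P5. The 10 contractile genes averaged 3.87 and 4.14, 1.96 and 1.94, and -1.06 and -0.54 in the same order. The vascular list thus averaged higher in MEC than in P4 in both genotypes, and its part in the contractile values was not tested.

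Other cell types gave fewer calls between P4 and P5. Of 13 skeletal muscle markers 2 were called higher (Acta1, and Myh2, 1.01) and 0 lower, with Myh1 (-0.24) and Mb (-0.91) lowest and list means between -0.56 and 0.09 on the 6 arrays. Of 15 fibroblast markers 4 were called higher (Postn, 5.27, Fbln1, 2.54, Dcn, 2.16, and Mmp2, 1.99), with Mfap5 (0.20) and Fap (-0.01) lowest. Of 14 endothelial markers 1 was called lower (Vwf, -0.77), with Flt1 (0.71) and Esam (0.34) highest and Eng (-0.84) lowest. Of 14 leukocyte markers 0 were called, with Ptprc (1.14) and Cd3g (0.88) highest and Cd79a at 0.18. Of 12 adipocyte markers Plin4 was called higher (1.55) and Pnpla2 lower (-0.86), with Fabp4 at 0.90 and Lipe at -0.69.

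Likeness of pattern was measured as the root mean square distance over the 6 arrays from the median of the 10 genes, each gene first centred on its own mean. The nearest genes outside the set were Actc1 (0.132), Acta1 (0.218), Igfbp3 (0.263), Id4 (0.333) and Sobp (0.334). With backgrounds replaced, Id4 moved to place 37 and Sobp to place 12. Within the set the distances ran from 0.11 for Acta2 and 0.23 for Mylk to 1.63 for Tpm1 and 1.88 for Oxtr.

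The comparison of het with WT is the question of the series, and over the 3 populations limma called 0 of the 10 genes, where 0% of genes were called (0 higher, 0 lower). At an unadjusted p under 0.05 there were 1 of the 10 and 5192 genes in all. That gene was Myh11, higher in het by 0.72 (SE 0.13, adjusted p = 0.206), and by 0.15 (adjusted p = 0.571) with backgrounds replaced. The adjusted p-values of the 10 genes lay between 0.206 and 0.950. The median difference was 0.29, against 0.07 over all genes, and 0.11 with backgrounds replaced. Under median centring 3 of the 10 genes were called, where 7857 of 24829 genes were. The median difference turned to -0.82 there (all genes -0.21), with 2 of 10 genes above 0, and to -0.01 with the Cy5 level alone. Without either P5 array it was -0.000742, and without either MEC array 0.49. Of the other 12 lists described above, 0 genes were called.

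Within a population the genotypes were 1 array against 1, with no test. In P5 the het array was the higher for 9 of 10 genes, with a median of 0.68 against 0.07 over all genes, where 61% of genes were above 0; with each array centred on its median instead of loess it was higher for 5 of 10, with a median of -0.04. Myl9 had the widest difference, 1.14 (-3.18 in WT and -2.04 in het), the only gene of the set at least 2-fold higher, where 2.54% of genes were (2.29% with backgrounds replaced, again with Myl9 alone of the set). Cnn1 (0.91), Mylk (0.81), Tpm2 (0.74), Tagln (0.73) and Acta2 (0.63) followed. Myh11 differed by 0.43 (0.17 with backgrounds replaced), Actg2 by 0.07 and Tpm1 by -0.31. Oxtr, not above background in either P5 array, differed by 0.09, by -0.01 with backgrounds replaced, which left 8 of 10 genes above 0, and by -1.48 with the scanner software's ratio. In the same pair of arrays the median difference was 0.39 for basal markers (8 of 13 above 0), -0.30 for luminal (6 of 17), 0.39 for pericyte and vascular smooth muscle (12 of 14), 0.62 for fibroblast (15 of 15) and 0.70 for endothelial markers (14 of 14). With backgrounds replaced the endothelial median was 0.44 (14 of 14). The part of these cell types in the contractile values was not tested.

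In P4 the median difference was 0.27 with 7 of 10 genes above 0, where 64.2% of all genes were, and 0.01 with 5 of 10 above 0 (60.9% of all genes) once backgrounds were replaced. The median fell below 0 with the scanner software's ratio (-0.04), the Cy5 level alone (-0.15) and median centring (-1.38). None of the 10 was 2-fold higher, where 5.91% of genes were (3.57% with backgrounds replaced). Myh11 differed by 0.81 as given and 0.03 with backgrounds replaced, Oxtr by 0.73 and -0.71, Cnn1 by 0.71 and 0.39, and Tagln by 0.50 and 0.37. In MEC the median was -0.17 with 4 of 10 above 0, where 56.5% of genes were, and 3 of 10 where 51% were with backgrounds replaced. The median was -1.04 under median centring (2 of 10 above 0) and -0.33 with the scanner software's ratio. None was 2-fold higher, where 2.01% of genes were (1.18% with backgrounds replaced). Myh11 differed there by 0.93 (0.25 with backgrounds replaced) and Mylk by -0.52, with the other 8 between -0.27 and 0.24. Luminal markers had a median of 1.04 in that pair of arrays (0.33 with backgrounds replaced) and fibroblast markers -0.73, and their part in the contractile values was not tested.

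**Figure D5:**
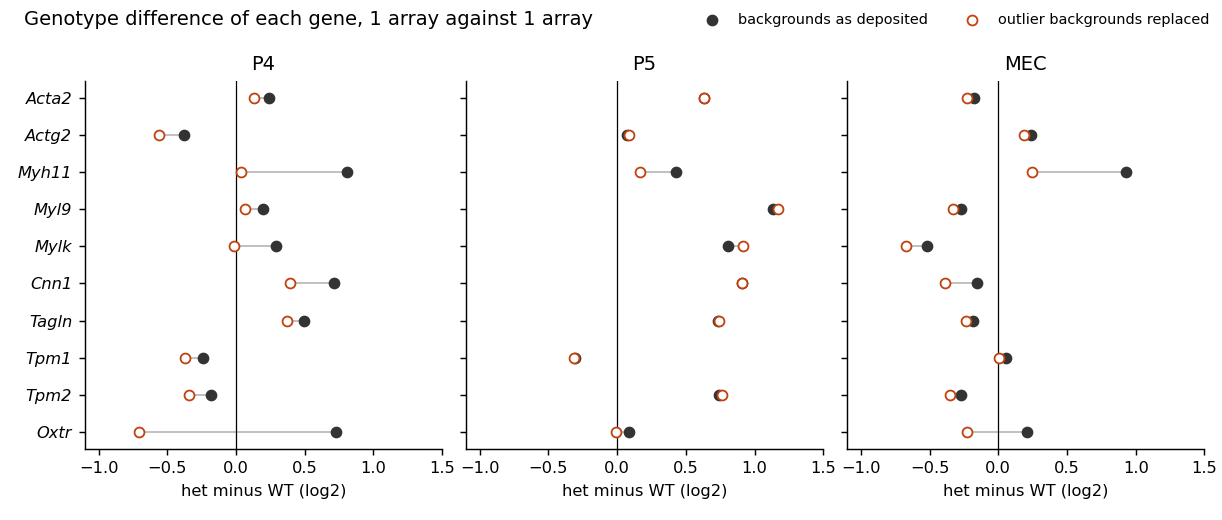
Difference het minus WT (log2) of the 10 genes in P4, P5 and MEC, each from 1 array against 1, as measured and with outlier backgrounds replaced. In P5 most genes lie above 0 in both (median 0.68 and 0.69), an order that median centring ends (median -0.04), while in P4 the median moves from 0.27 to 0.01.

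The P4 to P5 difference was present in each genotype. Acta2 differed by 5.79 in WT and 5.41 in het, Tagln by 6.33 and 6.09, Myl9 by 6.74 and 5.81, and Tpm2 by 6.72 and 5.80. Myh11 differed by 4.96 and 5.34, Tpm1 by 1.67 and 1.74 and Oxtr by 0.69 and 1.33. With backgrounds replaced these became 5.66 and 5.53 for Myh11, 1.79 and 1.74 for Tpm1, and 2.36 and 1.66 for Oxtr. The WT difference was the wider for 7 of the 10 genes, and for 10 of 10 with backgrounds replaced. Each of these differences is 1 array less another, and whether they differ between genotypes was not tested. The share of all genes with the wider difference in WT was not counted.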

How the data were processed

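Sample RNA in Cy5 was hybridised with a common reference RNA in Cy3, with 1 array per group and no dye swap. The authors extracted spots with Agilent Feature Extraction 9.5.3.1, per the submitters' processing notes, and the probe positions are on mm7, per the file headers. The deposited scanner files hold mean signals and local backgrounds as raw intensity and a log10 ratio made by the scanner software. The deposited series table holds log2 ratios that followed the scanner ratios (correlation over probes 0.988 to 0.999, slope 1), so its direction is sample over reference. Its column medians lie between -0.0441 and 0.101, and its centring is not given in the sources used here.

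The software was R 4.3.3, with the packages limma 3.58.1, jsonlite 2.0.0 and data.table (1.17.8). Background was corrected with normexp (offset 50) and each array was normalised by loess, with control and outlier spots at weight 0. Spots of a probe were averaged. Probes were named by accession (22951 probes), by synonym (3109) or by the array (15114). A gene was represented by the probe of highest mean Cy5 level among those that 2 or more of the 6 arrays detected in Cy5 (well above background). limma was fitted on population plus genotype with 2 residual degrees of freedom. P-values were Benjamini-Hochberg adjusted over 24829 genes, or over all probes kept where a probe is described, and called below 0.05. With 1 array per group the fit takes its error from genotype differences that vary between populations. The fit was tested on simulated data. In an alternative, local backgrounds above the array median plus 3 median absolute deviations took the array median. The genes, lists and tests were chosen with earlier results of these data known. All 10 genes and their probes are described. Of each other list the 2 highest and 2 lowest genes in P4 minus P5 are named, with paralogs beside their family, and the 5 genes nearest in pattern to the median of the 10. Some genes that this rule picks are not reported here.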

Additional observations from a re-analysis of the deposited data

Results flagged for a closer look

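Several genes went opposite ways between the genotypes in different populations, each value being 1 array against 1, so the differences were not tested. In P5 and MEC the difference het minus WT had opposite signs for 7 of the 10 genes. The P5 difference exceeded that of MEC by 1.40 for Myl9, 1.32 for Mylk, 1.06 for Cnn1, 1.01 for Tpm2, 0.92 for Tagln and 0.81 for Acta2 on the log2 scale, with the het array higher in P5 and lower in MEC. Tpm1 went the other way (-0.36). In P5 and P4 the signs were opposite for Tpm2 (P5 less P4, 0.92) and Actg2 (0.45). In P4 and MEC they were opposite for Cnn1 (P4 less MEC, 0.87), Mylk (0.81), Tagln (0.68), Myl9 (0.47), Acta2 (0.42), Tpm1 (-0.30) and Actg2 (-0.62). With outlier backgrounds replaced, 15 of these 16 pairs kept opposite signs, the exception being Mylk in P4 and MEC. Under median centring het minus WT was above 0 for 1 of 10 genes in P4, 5 in P5 and 2 in MEC. Some of the differences lay below the technical error of 0.142, such as Tpm1 in MEC (0.06) and Actg2 in P5 (0.07). The share of all genes with opposite signs was not counted.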

How the results depend on the processing

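No paired analysis was possible because the labels give no replicate numbers. The fit on population plus genotype already compares populations within genotype and genotypes within population. Leaving out 1 array in turn gave 0 to 10 genes of the set called for P4 against P5, 0 to 9 for P4 against MEC, 0 to 8 for P5 against MEC and 0 for het against WT. With each array centred on its median, the median over all genes was -0.23 for P4 against MEC, -0.35 for P5 against MEC and -0.21 for het against WT. Under that setting 4 of the 10 genes were called for P4 against MEC, with Tpm1 at -0.13 (limma adjusted p = 0.763), and 3 for het against WT (1 higher, 2 lower), with Acta2 at -0.94 (adjusted p = 0.0451). Of all 24829 genes it called 7023 for P4 against MEC and 7857 for het against WT. The median het minus WT became -1.38 in P4, -0.043 in P5 and -1.04 in MEC. In P4 that median was 0.00815 with backgrounds replaced, -0.15 from Cy5 alone and -0.0370 from the scanner ratio and the series table, which both gave -0.33 in MEC. An offset of 0 called 1 gene for het against WT (Myh11, 0.99, adjusted p = 0.0491). Over all genes, P4 against P5 gave 2624 calls, 904 under median centring, 4641 on slide 1 alone and 0 without any 1 sorted array. Het against WT gave 0, 416 with an offset of 0, 7857 under median centring and 854 on slide 1 alone. The causes were not tested. Signal over background leaves the level of Oxtr in P5 uncertain.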
